A study of Mus musculus with 80 samples.

Results

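Proteasome genes were followed by RNA-seq in mouse embryonic stem cells (ESCs) moved from serum medium to 2i. They were taken as every gene of the expression table whose symbol starts with Psma, Psmb, Psmc, Psmd, Psme or Psmg followed by a digit, leaving out names with "-ps". This gave 48 of 25965 genes. By role they are 8 genes of the 20S alpha ring, 7 constitutive and 4 immuno or thymic genes of the 20S beta ring, 4 chaperones of 20S assembly, 6 ATPase genes, 3 non-ATPase genes of the 19S base, 8 genes of the 19S lid, 3 chaperones of the 19S base, 4 activator genes and Psmc3ip. Psmc3ip met the naming rule but encodes a partner of the meiotic recombinases and is no proteasome subunit.

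The study followed the loss of DNA methylation when ESCs leave serum for 2i, a medium with inhibitors of the kinases MEK and GSK3. RNA-seq covered 12 libraries of the wild-type ESC line E14, with 3 replicates each in serum and after 6, 24 and 72 h in 2i. ChIP-seq for H3K9me2, dimethylated lysine 9 of histone H3, covered wild-type E14 cells in serum, after 24 h in 2i and in long-term 2i, with 2 bound libraries and 1 input per condition. None of these groups carried a transgene or deletion in the labels. The study describes its replicates of expression as biological, but the labels do not say that these libraries came from separate cultures, so p-values measure only the spread between these libraries.

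The proteasome is the protease that degrades proteins marked with ubiquitin. Its 20S core stacks rings of alpha subunits, which form the gate, around rings of beta subunits, of which Psmb5, Psmb6 and Psmb7 carry the constitutive peptidase activities. In immunoproteasomes these are replaced by the products of Psmb8, Psmb9 and Psmb10, which are best known from immune cells and cells exposed to interferon. The 19S cap unfolds substrates and removes their ubiquitin, whereas the caps encoded by Psme genes open the core without ubiquitin.

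Expression values are the deposited log2 values, corrected by the authors for gene length and library depth, so they can be compared between genes. Whole reads could be recovered for 99.8% of the genes, and the libraries held 10317841 to 15271213 such reads. Markers of ESCs, Pou5f1, Sox2 and Nanog among them, were expressed in every library, but their levels moved. Of the 10 listed, 3 were called higher and 4 lower at 6 h (9.13% and 6.48% of all genes), 6 and 2 at 24 h (34.2% and 29.1%) and 6 and 2 at 72 h (25.7% and 26.5%). Utf1 had the lowest change, -4.09 at 24 h and -3.44 at 72 h. On the linear scale they summed to 1700 to 2010 in serum, 1480 to 1770 at 6 h, 2120 to 4180 at 24 h and 2320 to 3730 at 72 h. Of the markers listed for other cells, 1 of 5 lymphoid and myeloid, 2 of 7 fibroblast and 3 of 7 primitive endoderm genes passed the filter on low values. On the linear scale the lymphoid and myeloid markers summed to 1.74 to 2.24 in serum, 1.61 to 2.47 at 6 h, 1.88 to 2.22 at 24 h and 3.02 to 3.44 at 72 h. Their tested gene, Cd3e, was higher at 72 h by 0.94, while Ptprc, the pan-leukocyte marker, lay between -7.18 and -6.59 in all libraries. The fibroblast markers summed to 7.67 to 9.79 in serum, 8.12 to 8.92 at 6 h, 4.77 to 7.79 at 24 h and 4.54 to 4.99 at 72 h, with Col1a1 lower at 24 and 72 h and Thy1 lower at 72 h, and the endoderm markers to 4.66 to 4.95 in serum, 4.35 to 4.83 at 6 h, 3.79 to 3.95 at 24 h and 3.80 to 4.61 at 72 h, with Gata4 higher and Dab2 lower at both times. These marker genes were named after their values were seen, and their part in the results was not tested. A gene was tested with limma when its log2 value was above 0 in at least 3 libraries, which held for 12306 genes and for 45 of the 48 proteasome genes. Calls needed a p below 0.05 after Benjamini-Hochberg adjustment.

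Most proteasome genes were abundant in serum. The median of the 45 tested genes was 5.65 on the log2 scale, against 2.66 for all genes tested, which put it at percentile 92.1. Psma2 of the alpha ring had the highest mean in serum, 7.24 ± 0.14 (SD, n = 3), followed by Psmb7 at 6.85 ± 0.13 and Psmb1 at 6.83 ± 0.28, which lie within each other's spread. The lowest tested genes were Psmd9, a chaperone of base assembly, at 2.16 ± 0.14 and Psma8, the testis-specific alpha subunit, at 2.27 ± 0.15. Psmb8, Psmb9 and Psmb11, the thymic beta subunit, had means of -0.41, -1.95 and -2.34 and did not pass the filter. Proteasome genes, which include assembly chaperones and alternative subunits, thus spanned a wide range of levels, with these 3 genes below all others.

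**Figure D1:**
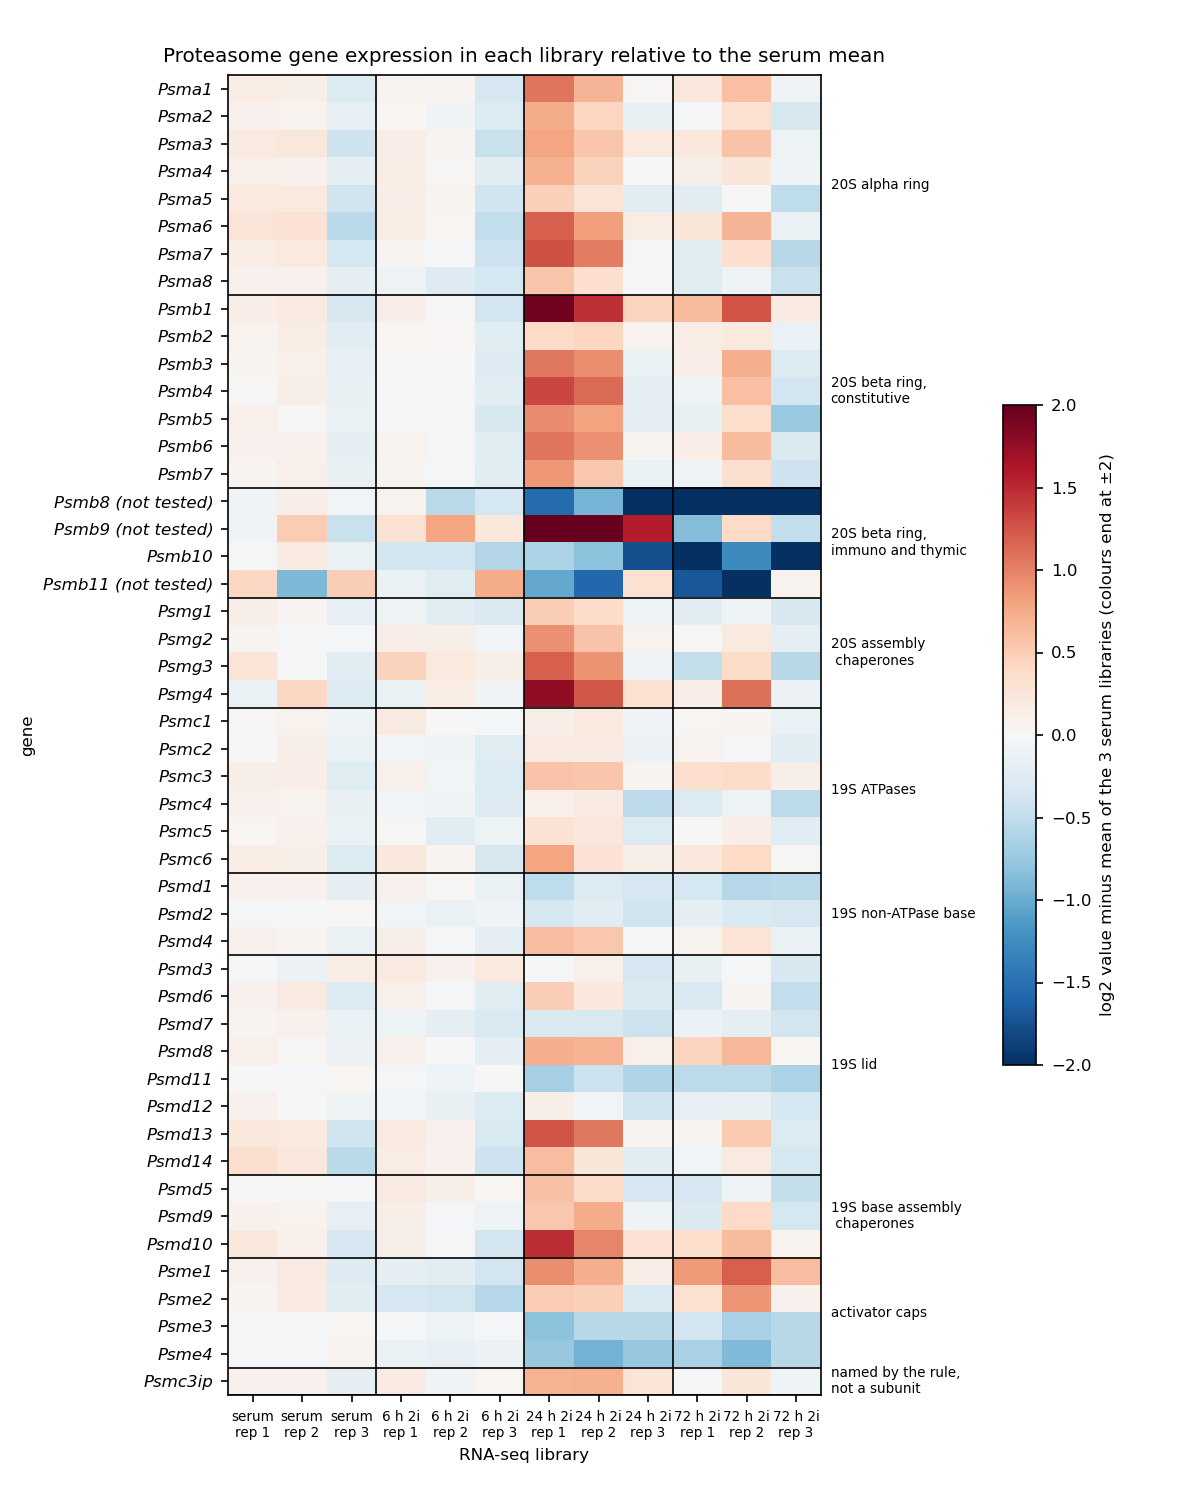
Each row is a proteasome gene, grouped by role, and each column an RNA-seq library; the colour gives the log2 value minus the mean of the 3 serum libraries. Red prevails at 24 h in replicates 1 and 2 and is paler or absent in replicate 3, while Psmb10, Psme3, Psme4 and Psmd11 are blue in every library of 24 and 72 h.

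After 6 h in 2i no proteasome gene was called. All genes tested were called higher in 9.13% of cases and lower in 6.48% by the same fit. Of the 45 tested proteasome genes, 0 had an unadjusted p under 0.05, and limma voom on the recovered reads called 0 as well. The median change was -0.07 on the log2 scale, beside 0.01 for all genes tested, and single changes ran from -0.44 for Psmb10 to 0.26 for Psmg3. The main fit and voom pool the spread of all 12 libraries. With only the 6 libraries compared, Psmb10 and Psme2 were called lower, and the share of all genes in that fit is not given here. With the replicate number as a block and the trend of change with gene span removed, Psme1 and Psme2 were called lower. These were 4.44% of the 45 genes, against 11.6% of all genes in that fit. The replicates of Psmb10, Psme2, Psme4 and Psmd2 all lay below those of serum, 4 of 45 genes, where 20.3% of all genes did so. Those of 1 gene, Psmd5, lay above serum, where 24.1% of all genes did so.

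After 24 h in 2i proteasome genes were called in both directions. Of 45 tested genes, 9 were higher (20% of them) and 7 lower (15.6%), against 34.2% higher and 29.1% lower among all genes tested (63.3% in either direction). After quantile normalization 8 were higher and 11 lower, against 32.3% and 31.7% of all genes in that fit. With the replicate number as a block, 25 were higher (55.6%) and 7 lower (15.6%), against 38.9% and 32.1% of all genes. The labels do not say that these numbers pair. With block and span trend removed, 16 were higher (35.6%) and 10 lower (22.2%), against 35% and 34.9% of all genes. The median change of the 45 genes was 0.38, beside 0.11 for all genes tested. Of the 45 genes, 35 had a positive change, as did 6744 of the 12306 genes tested. Replicates did not overlap with serum for 5 genes that lay above and 7 that lay below it, where 34.4% and 30.3% of all genes did so. In bulk RNA a change in the share of cells of one kind and a change in RNA per cell cannot be told apart.

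Of the 9 higher genes at 24 h, 2 encode constitutive beta subunits and 2 chaperones of 20S assembly. Psmb1 (17:15475721-15498276, minus strand in GRCm38), a non-catalytic beta subunit, measured 6.96, 7.01 and 6.51 in the 3 serum libraries and 8.75, 8.29 and 7.27 at 24 h. All 24 h libraries lay above all serum libraries, and the change was 1.28 ± 0.36 (SE, adjusted p = 0.0091), a fold of 2.42. It stayed called under all 26 alternatives. At 72 h Psmb1 measured 7.46, 8.09 and 6.999, and was not called in the main fit. It was called higher there after quantile normalization and with the replicate block, with or without the span trend removed. The same held without 24 h replicate 3 and without replicate 3 of every group. The lowest 72 h library lay just below the highest serum library.

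Psmg4, a chaperone of alpha ring assembly, measured 3.45, 4.01 and 3.31 in serum and 5.36, 4.83 and 3.90 at 24 h. The change was 1.10 ± 0.37 (adjusted p = 0.0224), although 24 h replicate 3 lay below serum replicate 2. Psmd10, known as gankyrin and a chaperone of the base, rose by 0.92 ± 0.27 (adjusted p = 0.0126), from 3.10, 2.97 and 2.52 to 4.35, 3.84 and 3.16, without overlap. Psmd13 of the lid (7:140881968-140898643, plus strand) rose by 0.79 ± 0.31 (adjusted p = 0.0423), from 4.97, 4.97 and 4.36 to 6.01, 5.82 and 4.82. Its replicates overlapped, and the call was lost under 11 of 26 alternatives, against 4 for Psmg4 and 2 for Psmd10. Psmd13 shares 342 bp with Sirt3 on the opposite strand, which went from a mean of 1.58 to 3.54, and counting by strand is not stated, so reads in the shared stretch cannot be assigned. Psmb6, the caspase-like catalytic subunit, rose by 0.68 ± 0.27 (adjusted p = 0.0455), from 6.43, 6.43 and 6.17 to 7.41, 7.25 and 6.41. Its replicate 3 at 24 h lay below the upper pair of serum libraries, and the call was lost under 14 of 26 alternatives, with a change of 0.23 (adjusted p = 0.204) once the span trend was removed. Psme1, Psmc3ip, Psmg2 and Psmd8 completed the higher genes, with changes between 0.51 and 0.60.

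The other catalytic genes were not called at 24 h. Psmb5, the chymotrypsin-like subunit, had a change of 0.52 ± 0.30 (adjusted p = 0.153), with 6.06, 6.00 and 5.83 in serum and 6.91, 6.77 and 5.77 at 24 h. Psmb7, the trypsin-like subunit, had a change of 0.42 ± 0.24 (adjusted p = 0.146), with 6.90, 6.95 and 6.70 in serum and 7.72, 7.39 and 6.72 at 24 h. In both genes replicates 1 and 2 of 24 h lay above all serum libraries and replicate 3 did not. None of the 8 alpha ring genes was called, with changes from 0.17 for Psma5 to 0.75 for Psma7, and 4 of them had an unadjusted p under 0.05. None of the 6 ATPase genes was called either, with changes from -0.08 for Psmc4 to 0.40 for Psmc6 and 1 unadjusted p under 0.05. With the replicate number as a block, 25 of the 45 genes were higher and 7 lower at 24 h, against 38.9% and 32.1% of all genes in that fit. The 25 held 6 of 8 alpha ring genes, 7 of 7 constitutive beta genes, 4 of 4 chaperones of 20S assembly and 2 of 6 ATPase genes. Psmb5 and Psmb7 were then called, with adjusted p of 0.0349 and 0.0406 by limma. With the span trend removed as well, the change of Psmb5 was 0.10 (adjusted p = 0.491) and that of Psmb7 was 0.69 (adjusted p = 0.00947). After quantile normalization the change of Psmb7 was -0.03.

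The lower genes at 24 h came from the 19S cap, the activators and the immuno beta ring. Psme4, which encodes the large single-chain activator PA200, measured 5.31, 5.30 and 5.41 in serum, 5.21, 5.18 and 5.22 at 6 h, 4.59, 4.39 and 4.58 at 24 h and 4.69, 4.46 and 4.78 at 72 h. Every library of 24 and 72 h lay below every serum library. The changes were -0.82 ± 0.11 at 24 h (adjusted p = 6.1e-05) and -0.70 ± 0.11 at 72 h (adjusted p = 0.000209). Psme4 has the longest span of the proteasome genes, 108636 bp, and with the trend of change with gene span removed its 24 h change was -0.41 (adjusted p = 0.00291).

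Psme3, the gamma subunit of the nuclear activator PA28, was also lower at both times. It measured 6.25, 6.25 and 6.31 in serum, 5.45, 5.71 and 5.71 at 24 h and 5.89, 5.62 and 5.72 at 72 h. The changes were -0.64 ± 0.11 (adjusted p = 0.000421) and -0.52 ± 0.11 (adjusted p = 0.00186), without overlap at either time. Psmd11 of the lid (11:80428615-80473248, plus strand) measured 5.03, 4.98 and 5.07 in serum, 4.37, 4.60 and 4.43 at 24 h and 4.51, 4.50 and 4.39 at 72 h. It fell by 0.56 ± 0.09 at both times, with adjusted p of 0.000335 and 0.000377. Psme3, Psme4 and Psmd11 were called lower at both times under all 26 alternatives.

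Psmd1, the largest scaffold of the base, fell by 0.37 ± 0.12 at 24 h (adjusted p = 0.0174) and by 0.49 ± 0.12 at 72 h (adjusted p = 0.00499). Its serum libraries at 6.18, 6.17 and 5.90 lay above those of 24 h at 5.58, 5.81 and 5.75 and those of 72 h at 5.73, 5.52 and 5.54. The row RP24-308M3.1, which overlaps Psmd1 by 5515 bp on the same strand, stayed between means of 5.54 and 5.78, and reads of the shared stretch cannot be told apart. With the trend of change with gene span removed, the 24 h change of Psmd1 was -0.03 (adjusted p = 0.85). The remaining lower genes at 24 h, Psmd7 of the lid and Psmd2 of the base, changed by -0.34 and -0.32.

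**Figure D2:**
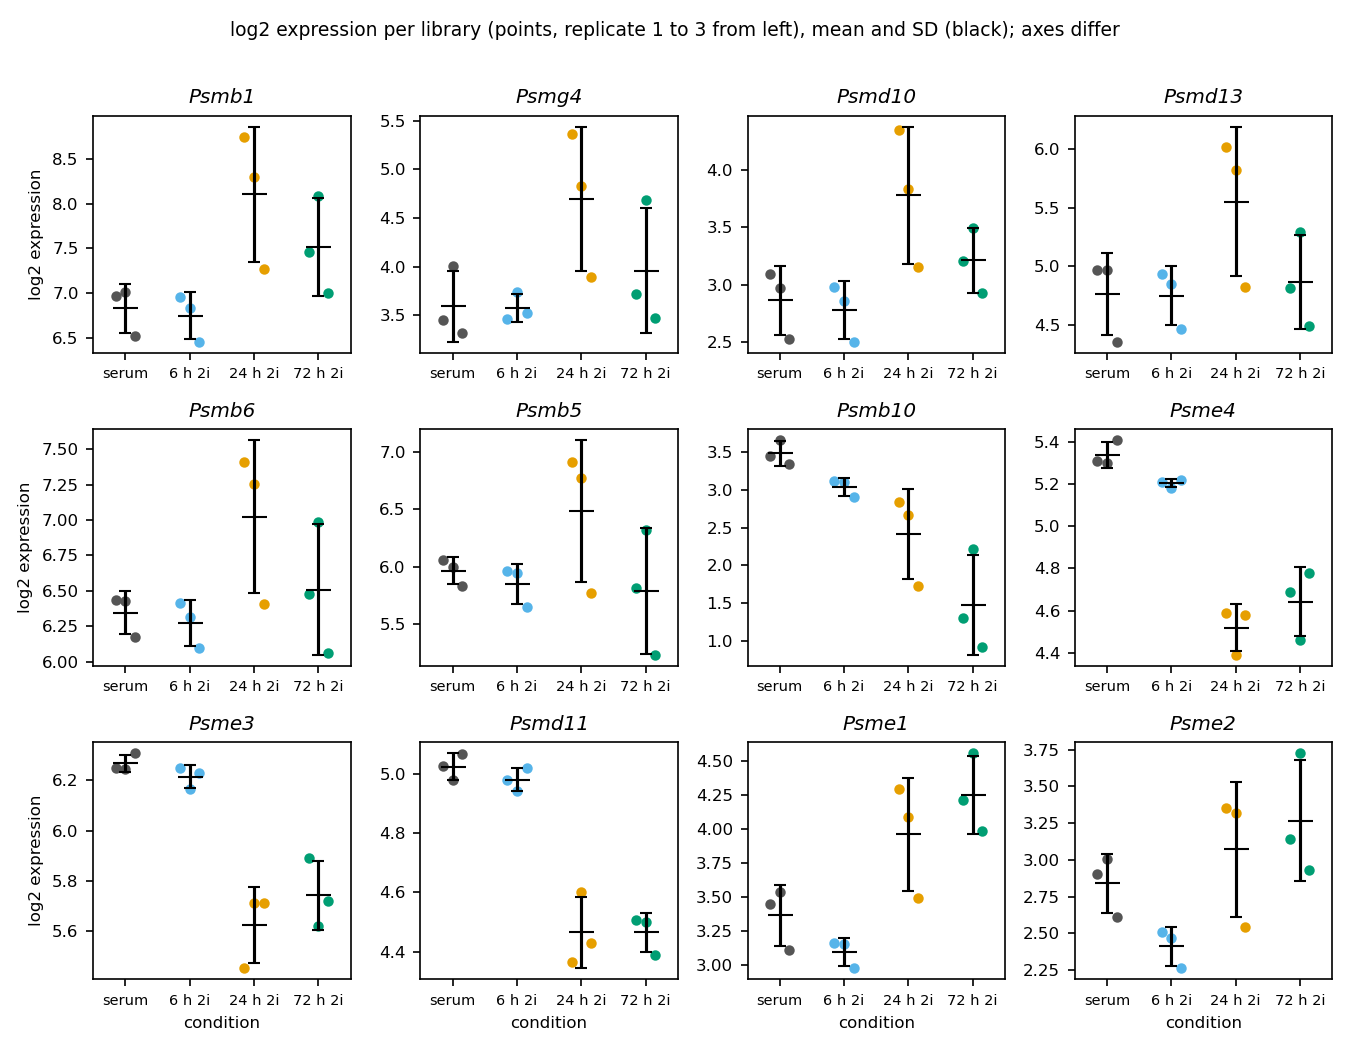
Deposited log2 expression of 12 proteasome genes in each library, with points for replicates 1 to 3 from the left, black lines for the mean and SD (n = 3), and axes that differ between genes and do not start at 0. Psme4, Psme3 and Psmd11 lie lower at 24 and 72 h in every replicate, whereas Psmb1, Psmg4, Psmd10, Psmd13, Psmb6 and Psmb5 are high at 24 h in replicates 1 and 2 and lowest in replicate 3.

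After 72 h in 2i the higher genes were no longer called in the main fit, apart from Psme1. Of 45 tested genes, 1 was higher (2.22%) and 6 were lower (13.3%), against 25.7% and 26.5% of all genes tested (52.2% in either direction). After quantile normalization 3 were higher and 9 lower, against 26.7% and 27.5% of all genes in that fit. The 3 were Psme1, Psmb1 and Psmd8. The median change was -0.03, beside -0.005 for all genes tested. Replicates lay wholly above serum for 1 gene and wholly below it for 8, where 31.3% and 32.3% of all genes did so. The 6 lower genes were Psmb10, Psme4, Psmd11, Psme3, Psmd1 and Psmd2, and all of them were also lower at 24 h. Both comparisons share the 3 serum libraries. The constitutive catalytic genes were not called at 72 h, with changes of -0.17 ± 0.30 for Psmb5 (adjusted p = 0.655), 0.16 ± 0.27 for Psmb6 (adjusted p = 0.639) and -0.06 ± 0.24 for Psmb7 (adjusted p = 0.856). In the main fit, Psma8 was not called against serum at either time. Its change was 0.30 ± 0.15 at 24 h (adjusted p = 0.106) and -0.26 ± 0.15 at 72 h (adjusted p = 0.169). The replicate block called it higher at 24 h (adjusted p = 0.0226) and lower at 72 h (adjusted p = 0.0441). With the span trend removed Psma8 was higher at 24 h by 0.56 (adjusted p = 0.0256). It was also called higher at 24 h without 24 h replicate 3 and without replicate 3 of every group. The count of 1 higher gene became 3 without 24 h replicate 3 and 2 without 72 h replicate 3.

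Psme1 and Psme2 encode the alpha and beta subunits of PA28, which are known to respond to interferon. Psme1 (14:55578123-55581529, plus strand) measured 3.45, 3.54 and 3.11 in serum, 3.17, 3.15 and 2.98 at 6 h, 4.29, 4.09 and 3.498 at 24 h and 4.21, 4.56 and 3.99 at 72 h. At 72 h it lay above serum in every library, with a change of 0.89 ± 0.21 (adjusted p = 0.00387) and a fold of 1.85. At 24 h the change was 0.60 ± 0.21 (adjusted p = 0.026), the groups overlapped, and with the span trend removed the change was 0.16 (adjusted p = 0.225). Psme2 measured 2.90, 3.01 and 2.62 in serum and 3.14, 3.73 and 2.93 at 72 h, a change of 0.43 ± 0.24 (adjusted p = 0.158), after 0.23 ± 0.24 at 24 h (adjusted p = 0.413), which turned to -0.20 with the span trend removed. Its groups overlapped, and the table also lists Psme2b-ps, named as a pseudogene copy, so how reads were divided between both is uncertain.

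Psmb10 fell the most of all tested proteasome genes at 24 h and at 72 h. This gene (8:105935728-105938392, minus strand) encodes the trypsin-like subunit of the immunoproteasome. It measured 3.44, 3.66 and 3.35 in serum, 3.12, 3.10 and 2.90 at 6 h, 2.85, 2.67 and 1.73 at 24 h and 1.30, 2.21 and 0.91 at 72 h. Every 2i library lay below every serum library. The change was -0.44 ± 0.33 at 6 h (adjusted p = 0.466), -1.07 ± 0.33 at 24 h (adjusted p = 0.0138) and -2.01 ± 0.33 at 72 h (adjusted p = 0.000343), the last a fold of 0.248. Between 24 and 72 h it changed by -0.94 ± 0.33 (adjusted p = 0.0469), with overlap of the groups. The row Gm16156 covers Psmb10 on the opposite strand at a mean between -4.00 and -3.08.

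The other immuno and thymic genes did not pass the filter on low values and are given in reads. Without that filter, limma called Psmb8 lower at 24 and 72 h, Psmb9 higher at 24 h, and both lower from 24 to 72 h. Psmb8, the chymotrypsin-like immuno subunit, had 37, 35 and 45 reads in serum, 37, 26 and 31 at 6 h, 12, 19 and 3 at 24 h and 1, 1 and 0 at 72 h. With library scaling, the ratio to serum was 0.293 at 24 h (95% exact interval 0.194 to 0.433) and 0.0161 at 72 h (0.00193 to 0.0595). Intervals of reads cover counting error only. Every library of 24 and 72 h had fewer reads than every serum library.

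Psmb9, which takes the place of Psmb6 in the immunoproteasome, did not follow Psmb8 and Psmb10. It had 17, 21 and 16 reads in serum, 20, 30 and 21 at 6 h, 91, 77 and 62 at 24 h and 12, 23 and 13 at 72 h. The ratio to serum was 4.3 at 24 h (3.18 to 5.9) and 0.838 at 72 h (0.556 to 1.26). The 24 h libraries were thus above all others, and the scaled values of 72 h (-2.81, -1.56 and -2.44) overlapped with those of serum (-2.02, -1.44 and -2.39). Psmb9 shares 212 bp with Tap1, the antigen peptide transporter gene on the opposite strand, which was named here after its values were seen. Counting by strand is not stated, so reads in the shared stretch cannot be assigned. Tap1 had the higher mean of both genes in every group. Tap1 measured -0.15, -0.39 and -0.19 in serum, had a mean of 0.38 at 6 h, and measured 0.80, 1.26 and 0.75 at 24 h and -0.67, -0.27 and -0.28 at 72 h.

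Psmb11, the beta subunit of thymic epithelium, had 21, 7 and 27 reads in serum, 13, 13 and 27 at 6 h, 7, 5 and 23 at 24 h and 6, 1 and 17 at 72 h. The ratio at 72 h was 0.411 (0.243 to 0.676), but the replicates of all 4 groups overlapped.

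**Figure D3:**
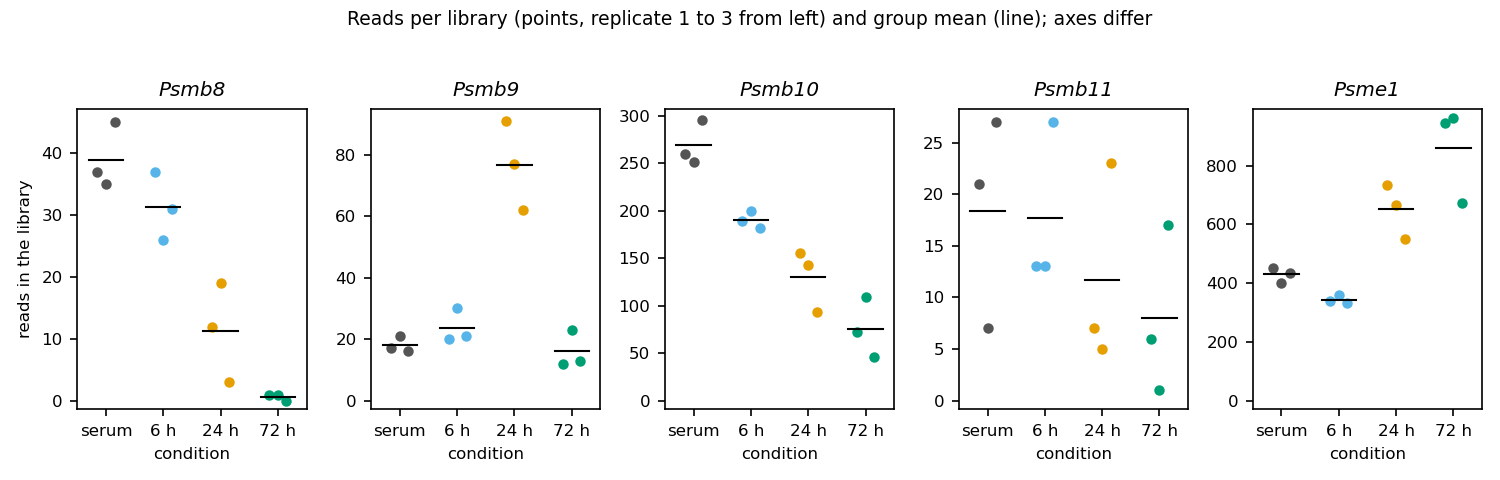
Recovered whole reads of the 4 immuno and thymic beta genes and Psme1 in each library, with points for replicates 1 to 3 from the left and lines for group means; axes differ and reads are not scaled for depth. Psmb8 falls from 35 to 45 reads in serum to 0 or 1 at 72 h, while Psmb9 is high at 24 h only.

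Sequences 5′ of the start of 4 beta and activator genes are shown, because Psmb5 and Psmb6 are constitutive partners of the immuno genes, Psmb10 fell the most among the tested genes and Psme3 fell at both times. They come from RefSeq (GRCm38.p6), which held promoters of 40 of the 48 genes, and each gives the 250 bases before the start. Capitals mark CCAAT, the box bound by NF-Y, or TGACNNNGC, the core of the antioxidant response element bound by Nfe2l1 and Nfe2l2, on either strand. The motifs do not overlap in these windows.
Psmb5, chr14:54617996-54618245, minus strand: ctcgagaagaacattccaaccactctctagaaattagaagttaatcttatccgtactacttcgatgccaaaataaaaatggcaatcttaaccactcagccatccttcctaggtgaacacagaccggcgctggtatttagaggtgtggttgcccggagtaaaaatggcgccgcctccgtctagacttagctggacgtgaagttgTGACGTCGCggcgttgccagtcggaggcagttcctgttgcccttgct
Psmb6, chr11:70525107-70525356, plus strand: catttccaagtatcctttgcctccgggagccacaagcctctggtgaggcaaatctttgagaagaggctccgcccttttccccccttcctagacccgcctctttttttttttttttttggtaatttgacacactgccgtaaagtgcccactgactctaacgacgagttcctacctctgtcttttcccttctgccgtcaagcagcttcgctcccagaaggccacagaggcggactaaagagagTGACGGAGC
Psmb10, chr8:105938393-105938642, minus strand: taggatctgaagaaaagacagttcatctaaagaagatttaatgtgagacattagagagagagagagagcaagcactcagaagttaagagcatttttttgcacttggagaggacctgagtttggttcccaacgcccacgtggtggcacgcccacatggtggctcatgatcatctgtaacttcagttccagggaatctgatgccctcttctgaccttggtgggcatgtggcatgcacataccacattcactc
Psme3, chr11:101315963-101316212, plus strand: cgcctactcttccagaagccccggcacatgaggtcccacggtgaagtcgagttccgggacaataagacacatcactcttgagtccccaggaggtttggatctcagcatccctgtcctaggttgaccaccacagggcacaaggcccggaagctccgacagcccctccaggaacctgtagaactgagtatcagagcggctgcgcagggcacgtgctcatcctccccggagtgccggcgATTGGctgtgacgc
TGACNNNGC stood 47 to 39 bases before the start of Psmb5 and 9 to 1 bases before that of Psmb6, counted from the RefSeq start. For Psmb6 the start in the expression table lies 10 bases further downstream. CCAAT stood on the minus strand in the Psme3 window, and neither motif was in the letters of the Psmb10 window. Over the 40 genes, CCAAT was present for 15 (37.5%), beside 33.8% of all 32851 promoters, and TGACNNNGC for 5 (12.5%), beside 10.2%. The genes with TGACNNNGC were Psmb5, Psmb6, Psmc6, Psmd9 and Psmd12. Both shares were near those of all promoters. The measures differ, since a gene counted when any of its promoters held the motif, whereas the background counts each promoter.

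The known regulators of proteasome genes were given beside their targets. Nfe2l1, the factor that raises proteasome transcription when activity is short, was higher at 6, 24 and 72 h, with changes of 0.67 ± 0.13, 0.32 ± 0.13 and 0.56 ± 0.13 (adjusted p = 0.00424, 0.0464 and 0.00345). Nfe2l2, its relative in the oxidative stress response, was higher by 0.42 ± 0.10, 0.71 ± 0.10 and 1.11 ± 0.10 (adjusted p = 0.0136, 0.0001 and 3.25e-06). Ddi2, the protease that activates the Nfe2l1 protein, changed by 0.02, -1.31 and -0.77, of which the later pair was called. Of the 10 listed regulators, 4 were called higher and none lower at 6 h, 5 higher and 3 lower at 24 h and 4 higher and 2 lower at 72 h. The shares of all genes tested were 9.13% higher and 6.48% lower at 6 h, 34.2% and 29.1% at 24 h and 25.7% and 26.5% at 72 h, and they are the background for the lists that follow too.

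Pomp, the chaperone of beta ring assembly, had changes of -0.11, 0.46 and 0.05 at 6, 24 and 72 h and was not called (adjusted p = 0.864, 0.0959 and 0.88). Among 12 other proteasome parts and assembly factors, 3 were higher and 1 lower at 6 h (25% and 8.33%, against 9.13% and 6.48% of all genes), 2 higher and 3 lower at 24 h and none higher and 4 lower at 72 h (16.7% and 25% at 24 h, against 34.2% and 29.1% of all genes). Among the called genes, those with the largest 72 h changes were Ube3c, a ubiquitin ligase bound to the proteasome (-0.93), Usp14, a deubiquitinase (-0.54), and Adrm1, a ubiquitin receptor (-0.36). Among 11 genes of substrate delivery, 2 were higher and 6 lower at 24 h (18.2% and 54.5%, against 34.2% and 29.1% of all genes) and 0 and 6 at 72 h, led at 72 h by Ubqln2 (-1.07). Among 8 ubiquitin and E1 genes, Uba6 was the only gene called at 72 h, at -1.42.

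Of 10 tested genes of antigen presentation, 3 were higher and 1 lower at 6 h (30% and 10%). Of the same 10 genes, 4 were higher and 3 lower at 24 h (40% and 30%, near the 34.2% and 29.1% of all genes) and 2 higher and 3 lower at 72 h (against 25.7% and 26.5%). B2m, the light chain of class I molecules, was higher by 1.65 ± 0.17 at 72 h (adjusted p = 1.11e-05) and Erap1, which trims peptides, lower by 1.65 ± 0.23 (adjusted p = 0.000114). The COP9 signalosome and the CCT chaperonin, other multi-subunit assemblies, had 1 and 1 genes higher and 0 and 1 lower at 24 h, out of 9 and 8.

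The comparison of 72 h with 24 h gave 0 higher and 4 lower proteasome genes (8.89%), against 15.8% higher and 15.7% lower among all genes tested (31.6% in either direction). This comparison shares the 24 h libraries with that of 24 h and serum. Psma8 changed by -0.56 ± 0.15 (adjusted p = 0.0166), Psmc3ip by -0.50 ± 0.15 (adjusted p = 0.0243) and Psmg1, a chaperone of alpha ring assembly, by -0.47 ± 0.15 (adjusted p = 0.0323), beside Psmb10. Psma8 measured 2.82, 2.61 and 2.28 at 24 h and 2.03, 2.18 and 1.82 at 72 h, without overlap. The median of the 45 genes was -0.34, beside -0.07 for all genes tested. Of the 45 genes, 38 had a negative change, as did 6798 of the 12306 genes tested. The COP9 signalosome and the CCT chaperonin had a negative change in 9 of 9 and 7 of 8 genes, with medians of -0.27 and -0.18. The 4 calls became 0 without 24 h replicate 1, 24 h replicate 2 or 72 h replicate 3, 1 without 72 h replicate 1, 13 without 72 h replicate 2 and 25 without 24 h replicate 3. With the replicate number as a block, 22 genes were lower (48.9%), against 25.9% of all genes in that fit. The replicate numbers are not shown to pair 24 h with 72 h.

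Replicate 3 differed from the others in the level of proteasome genes in every group. It had the lowest value of its group for 40 of 45 genes in serum (88.9%). In 2i the same held for 37 genes after 6 h (82.2%), 41 after 24 h (91.1%) and 42 after 72 h (93.3%). Among all genes it was lowest for 38.4%, 37.7%, 47.8% and 44.9%. The median difference of the 45 genes from the serum mean was 0.62, 0.46 and -0.09 in the 3 libraries of 24 h and -0.04, 0.25 and -0.32 in those of 72 h. Of the 45 genes, 37, 35 and 5 lay above all serum libraries in 24 h replicates 1, 2 and 3, and 37, 37 and 29 lay above the serum library of the same number.

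The same libraries differed along gene span. Genes in the shortest quartile of span, up to 7799.25 bp, had medians of 0.685, 0.586 and 0.172 above serum in the 24 h libraries, and genes in the longest quartile, from 46937 bp, had medians of -0.485, -0.438 and -0.17. The tested proteasome genes had a median span of 12361 bp beside 20179.5 bp for all genes tested, with 13 in the shortest and 5 in the longest quartile. With this trend removed within each library, 5 genes were higher and 9 lower at 24 h, against 31.2% and 31.6% of all genes, with a median of 0.15. Of the 9 genes called higher, 3 remained. The count of 9 was 29 without 24 h replicate 3, and 4, 5, 2, 2 and 3 without serum replicates 1, 2 and 3 and 24 h replicates 1 and 2. 

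**Figure D4:**
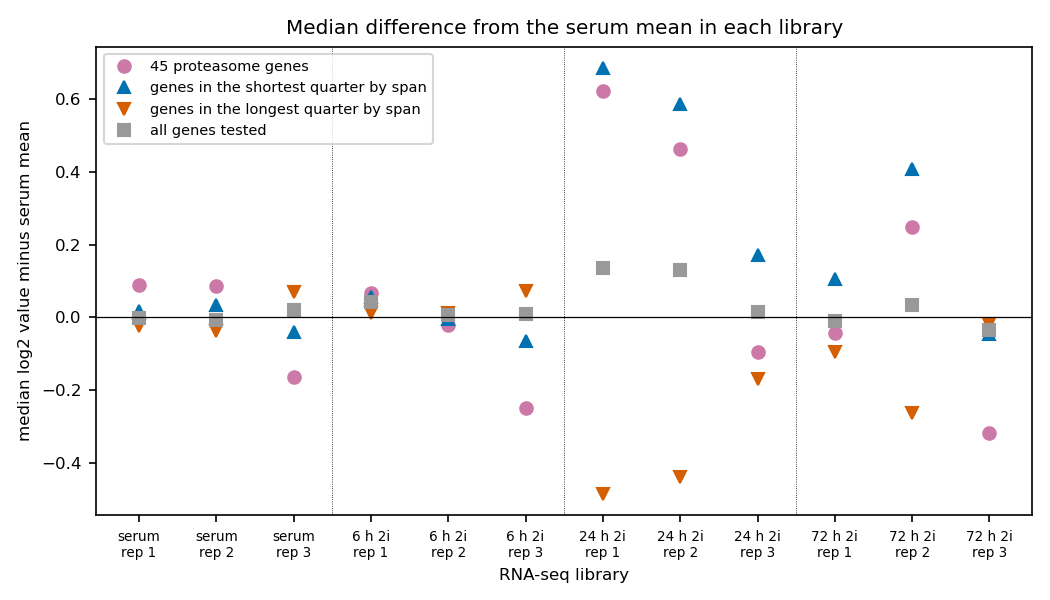
Median log2 difference from the serum mean in each of the 12 RNA-seq libraries for the 45 tested proteasome genes, the genes in the shortest and longest quartile by span, and all genes tested. The proteasome genes lie at 0.62 and 0.46 in 24 h replicates 1 and 2 and at -0.09 in replicate 3, and replicate 3 is the lowest of each group.

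H3K9me2 is a mark of repressed chromatin and was low over proteasome genes. It was averaged over the 2-kb bins of each gene, which gave values for 47 of the 48 genes, since no bin covered Psmb5. Relative to input, the median of the 47 genes was -2.80 in serum, -2.71 after 24 h and -3.45 in long-term 2i on the log2 scale, beside -1.20, -1.29 and -2.22 for all genes. In serum 44 of 47 genes lay below the median of all genes. All genes here are the 23602 with bins, expressed or not, and genes of like expression were not compared. Psma8, the gene active in testis, was the highest in serum at -0.36, and Psmb6 was the lowest at -4.15.

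After 24 h of 2i no gene was called for H3K9me2 in either direction (0% of 23602 genes, limma), and 4 of 47 proteasome genes had an unadjusted p under 0.05. The median change was -0.02, with -0.05 for all genes, and replicates of 8 genes lay wholly below serum, where 29.7% of all genes did so. In long-term 2i, 25 of 47 genes were lower and 1 was higher, where 50.4% of all genes were lower and 4.29% higher. Within 2 kb of the gene start 3 were lower and 0 higher, where 19.8% and 2.90% of all genes were, and the median was -0.28, beside -0.36 for all genes. The median change of -0.67 was near that of all genes, -0.63. Replicates of 34 of 47 genes lay below those of serum, where 67.0% of all genes did so.

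Values of single genes here are log2 reads per bin, so low ones rest on few reads. In long-term 2i replicate 2, Psmb6, Psmc5 and Psme3 shared a value of 0.497, and Psmb10, Psmb11 and Psmd8 shared 0.856. The values are scaled for depth, so a shift shared by all genes is not a measured change in the amount of the mark. Psme1 covered 2 bins, Psmb10 and Psmb8 covered 3 each and Psmg4 covered 6. Psme1 had the largest fall of H3K9me2, from 3.30 and 3.08 in serum to 1.36 and 1.57 in long-term 2i, a change of -1.72 ± 0.17 (adjusted p = 0.00148), and it had 3.498 and 3.28 after 24 h. Psmb10 went from 2.62 and 1.74 to 1.22 and 0.86, a change of -1.14 ± 0.32 (adjusted p = 0.0292). Psmb8 had 3.32 and 2.39 in serum and 3.12 and 2.49 in long-term 2i, a change of -0.05 ± 0.39 (adjusted p = 0.921). Psmg4 was the gene called higher, from 3.68 and 3.42 to 4.46 and 3.91, a change of 0.64 ± 0.21 (adjusted p = 0.046). The RNA libraries hold no long-term 2i, so H3K9me2 and RNA of that condition could not be set side by side. The 25 lower genes became 12 to 15 without any of the serum or long-term 2i libraries, with 15 without either serum library, 14 without long-term 2i replicate 1 and 12 without replicate 2. The 1 higher gene became 0 without any library but long-term 2i replicate 2. After quantile normalization, which removes differences shared by all genes, 0 were lower and 4 higher, where 8.22% of all genes were lower and 6.03% higher.

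**Figure D5:**
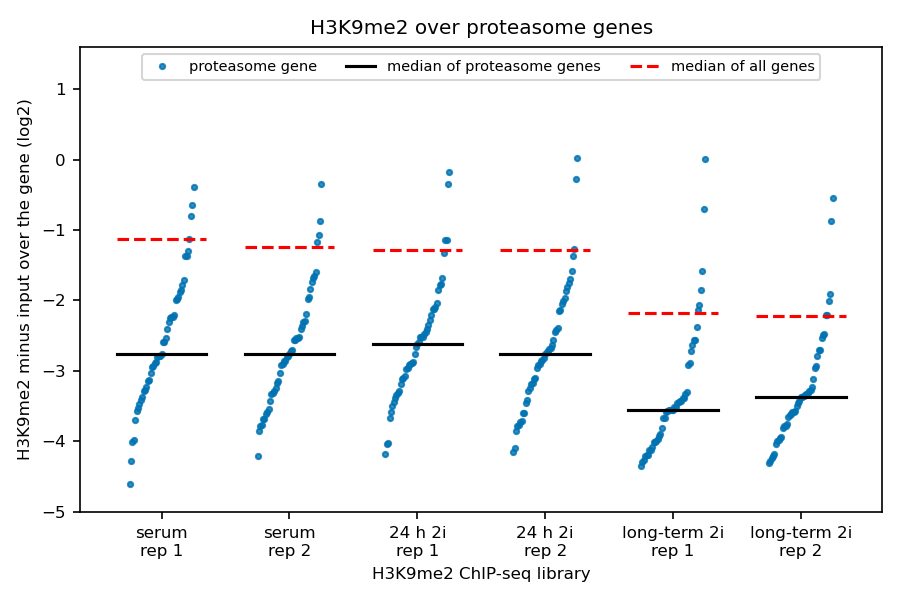
H3K9me2 minus input of the same condition, averaged over each gene on the log2 scale, in the 6 bound libraries; points are 47 proteasome genes ordered by value, black lines their median and dashed red lines the median of all genes. Most proteasome genes lie below the median of all genes in every library, and both medians are lower in long-term 2i.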

How the data were processed

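RNA-seq (12 libraries) and H3K9me2 ChIP-seq (6 bound libraries, 3 inputs) were used. The authors deposited RNA as log2 values per gene, corrected for length and depth and brought to a common 75th percentile of 2.51, with a gene without reads entered as 0.9 reads; ChIP-seq was deposited as log2 reads per 2-kb bin, scaled for depth. The RNA kit was TruSeq and the use of strand in counting is not given in the texts read here. The submitters' processing notes list Trim Galore 0.3.5, TopHat2 2.0.11, Bowtie2 and Bismark 0.12.3 without roles, and gene coordinates are those of GRCm38.

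All genes were fitted with limma 3.58.1 in R 4.3.3 (lmFit, and eBayes with an intensity trend) over the 12 libraries, with a filter of log2 above 0 in at least 3 libraries, and calls needed a p below 0.05 after Benjamini-Hochberg adjustment. Errors are the SE of the fit. H3K9me2 was averaged over the bins of each gene span and fitted over the 6 bound libraries. Whole reads were recovered within a tolerance of 0.02 reads for 25926 genes (99.8%) and for 12267 tested genes (99.7%), with 10317841 to 15271213 reads per library. Replicate numbers were taken to pair 2 groups where all 3 same-number correlations of deviations were over 0.1. This held for serum with 6 h (0.281, 0.159 and 0.542) and with 24 h (0.27, 0.105 and 0.468), but not with 72 h (0.051, 0.303 and 0.396), nor for 24 h with 72 h. The criterion did not weigh other numbers. Serum replicate 2 correlated at 0.341 with 24 h replicate 1, above the 0.105 with its own number, and serum replicate 1 at 0.114 with 24 h replicate 2. Numbers 1 and 2 are thus not shown to pair serum with 24 h. The pairing comes from the data, since the labels give numbers only, and the criterion was applied to each comparison when the blocked calls were already known. At 6 h the block called 0 proteasome genes too. The scripts were tested on simulated data. Groups followed the sample labels.

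The genes and lists were chosen with earlier results of these data known. All proteasome genes could be named with their level. By rule, changes with error and p could be given for the 5 largest rises and falls among called genes in each comparison and for Psmb5 to Psmb11, Psma8 and Psme1 to Psme4; at 6 h and from 24 to 72 h those not called are mostly summarised. In the other lists, at most the 3 largest called changes at 72 h and Nfe2l1, Nfe2l2, Ddi2 and Pomp were named. Tap1 and the marker genes fall outside this rule and were named after their values were seen, without p. A further result under this rule is not reported here. Alternatives covered normalization, filter, pseudocount, variance trend, libraries fitted, replicate number, gene span and each library left out. The further ones, limma voom on recovered reads, the span trend removed together with the replicate block, a level trend removed, and replicate 3 of every group left out, were chosen after seeing the data. RRBS and bisulfite-sequenced ChIP were not used here, because RRBS is on NCBIM37 and coordinates were not converted.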

Additional observations from a re-analysis of the deposited data

Results flagged for a closer look

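In 4 of 45 genes (8.89%, against 31.6% of all genes tested) the value at 72 h differed from that at 24 h by limma's test of the difference between both time points, each of which is compared with the same serum libraries. The changes were -0.94 for Psmb10, -0.56 for Psma8, -0.50 for Psmc3ip and -0.47 for Psmg1 on the log2 scale. Of 26 alternatives, the call was lost under 16 for Psmb10, 4 for Psma8, 8 for Psmc3ip and 8 for Psmg1. With the replicate block, 22 of the 45 genes (48.9%) were lower, against 25.9% of all genes in that fit.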

How the results depend on the processing

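Of 1196 values of named genes under the alternatives, 1058 kept direction and side of the threshold, 81 lost and 40 gained a call, and 17 changed sign. The cause of the moves was not tested. At 24 h, the 9 higher genes became 4 with only the 6 libraries compared, 25 with the replicate block and 5 with the span trend removed. They became 16 with block and span trend removed and 27 without replicate 3 of every group. The 16 were 35.6% of the 45 genes, against 35% of all genes in that fit. For the fits with 6 libraries and without replicate 3, no share of all genes is given. The 7 lower became 11 after quantile normalization, 4 with only 6 libraries, 4 when a change of 0.5 was also required and 11 with the level trend removed. At 6 h, 2 were lower with only 6 libraries and 2 with block and span trend removed. At 72 h, the 1 higher gene became 3 after quantile normalization, 5 with the block, 5 with block and span trend removed, 2 with the level trend removed and 4 without replicate 3. The 6 lower became 14 with block and span trend removed. The 5 with the block were 11.1% of the 45 genes, against 30.3% of all genes. The 14 lower were 31.1%, against 32.5% of all genes. From 24 to 72 h, higher genes were 1 after quantile normalization, 3 with the span trend removed, 5 with block and span trend removed and 1 with the level trend removed. The 3 and the 5 were 6.67% and 11.1% of the 45 genes, against 17.2% and 22.5% of all genes. The 4 lower became 7 after quantile normalization, 0 with only 6 libraries, 22 with the block and 2 with the change of 0.5. They became 16 with block and span trend removed, 8 with the level trend removed and 26 without replicate 3. The 22 were 48.9% of the 45 genes, against 25.9% of all genes in that fit. The 16 were 35.6%, against 21.2% of all genes. Leaving out each library gave 2 to 29 higher and 5 to 7 lower genes at 24 h, 1 to 3 and 5 to 7 at 72 h and 0 to 25 lower from 24 to 72 h, with medians of -0.16 to 0.02 at 6 h, 0.20 to 0.56 at 24 h, -0.18 to 0.10 at 72 h and -0.59 to -0.18 from 24 to 72 h. Over all groups, deviations of the same replicate number correlated at -0.249 to 0.813 and of other numbers at -0.859 to 0.75. Of 12 libraries, 7 correlated best with their own number. The block at 72 h and from 24 to 72 h thus rests on numbers not shown to pair, and so does that at 24 h for numbers 1 and 2. Same-numbered ChIP libraries correlated at 0.0048 to 0.0604.

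Signs changed as follows. At 6 h, leaving out each library gave -0.1575 to 0.0193 for Psmb6 and -0.1464 to 0.006 for Psmb7. At 24 h, Psmb7 was -0.0294 after quantile normalization and -0.0173 with the level trend removed, and Psme2 was -0.1987 with the span trend removed, with or without the block. At 72 h, Psmb7 was 0.049 with the span trend removed, with or without the block, and 0.0452 without replicate 3 of every group, where Psmb5 was 0.0404. Leaving out each library gave -0.2523 to 0.1195 for Psmb7, -0.4419 to 0.1049 for Psmb5 and -0.0754 to 0.3859 for Psmb6. From 24 to 72 h, Psme4 was -0.1672 with the span trend removed, with or without the block, and Psme2 ran from -0.0696 to 0.3612 leaving out each library.

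For H3K9me2 after 24 h, the median of -0.02 became 0.10 within 2 kb of the start and -0.08 to 0.05 leaving out each library. In long-term 2i the median of -0.67 became -0.67 relative to input, -0.28 within 2 kb of the start, 0.0738 after quantile normalization and -0.75 to -0.66 leaving out each library. The 25 lower genes became 3 within 2 kb of the start, 0 after quantile normalization and 12 to 24 leaving out each library, and the 1 higher gene became 0, 4 and 0 to 1, and 2 with the replicate block.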
